A study of Schizosaccharomyces pombe with 40 samples.

Results

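The subtelomeric coding genes of fission yeast (Schizosaccharomyces pombe) were followed through nitrogen starvation and a synchronous meiosis. They were taken by position alone: protein-coding features of chromosome I ending before base 100000 or starting after base 5479000, and of chromosome II ending before base 100000 or starting after base 4439000. This gave 135 of the 5152 coding features and of the 12684 features in the count table. The left end of chromosome I holds 37 of them, its right end 33, the left end of chromosome II 35 and its right end 30. RefSeq annotates 122 as protein-coding genes and 13 as pseudogenes, and 49 have a gene symbol.

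Poly(A)+ RNA was sequenced from haploid h- cells of a control strain (wt: leu1-32, pat1-L95G::kanR) and of the same background carrying a mutated kink-loop motif in the snoRNA snR107 (snR107kloopmut). The pat1-L95G allele makes the Pat1 kinase, which blocks meiosis in growing cells, sensitive to the inhibitor 3-MB-PP1, and every strain used here carries it and leu1-32. Each strain was sampled in vegetative growth in EMM (V), after overnight incubation in EMM without nitrogen (-N) and hourly from 1 to 8 h after 25 µM 3-MB-PP1, with 2 biological replicates per stage and 40 libraries in all. Leucine and NH4Cl were added together with the inhibitor, so nitrogen refeeding and Pat1 inhibition cannot be told apart at any stage from 1 to 8 h. Cells entering meiosis as haploids have no partner chromosomes, and the stages of a culture are repeated aliquots of it.

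The ends of chromosomes I and II carry large blocks of shared sequence and are packed as heterochromatin and, further in, as condensed knobs that keep genes low in growing cells. Swi6, the HP1 protein, binds the methylated histones there, Taz1 binds the telomere repeats, and Sgo2 and Set2 are known for the knobs. The genes themselves are mostly accessory: nutrient transporters, catabolic enzymes, cell surface proteins, RecQ-type helicases next to the telomeres, and many proteins of unknown function.

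Library totals ran from 22889781 to 35440184 counts, and 3 counts, taken as the floor, corresponded to 0.0847 to 0.131 CPM. Only fnx1, rec8 and mei4 were read against the stage labels, so most stages have no marker here. The nitrogen starvation gene fnx1 was at 21.1 and 30.0 RPKM (counts scaled to feature length and TMM-scaled library total) in wt V and at 35.3 and 33.9 in wt -N. Transcripts of rec8, the meiotic cohesin subunit, were at 19.4 and 26.4 RPKM in wt 4 h and at 2.51 and 2.006 in wt 5 h, against 24.9 and 27.4 in snR107kloopmut 5 h. Those of mei4, the forkhead factor of mid-meiosis, were at 172 and 170 RPKM in wt 5 h, and at 59.1 and 70.4 in snR107kloopmut 5 h. At 8 h mei4 stood at 34.1 and 36.1 RPKM in wt and at 80.3 and 90.9 in the mutant. Genes of a stage thus differed between the strains at equal hours, and each strain difference below is a difference at equal hours only. In RNA from whole cultures, fewer cells expressing a gene and less RNA per cell cannot be told apart.

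Most subtelomeric genes gave few reads. The median member had 626 counts over the 40 libraries, against 68911 for the other coding genes, and 45 members (33.3%) had under 100 counts, against 4 other coding genes (0.0797%). Repeated sequence goes with this. In 66 members (48.9%) at least 10% of the 150-base windows occur elsewhere in the genome, which holds for 58 of 5006 other coding genes (1.16%), and 52 members have a near-identical copy, meaning at least 95% identity over at least 80% of the length. Members with 50% or more of their windows repeated had a median of 56 counts, and the 69 members under 10% had a median of 10030. How reads matching several places were counted is not given in the sources used here, so a low value of a repeated gene may reflect counting as well as RNA.

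**Figure D1:**
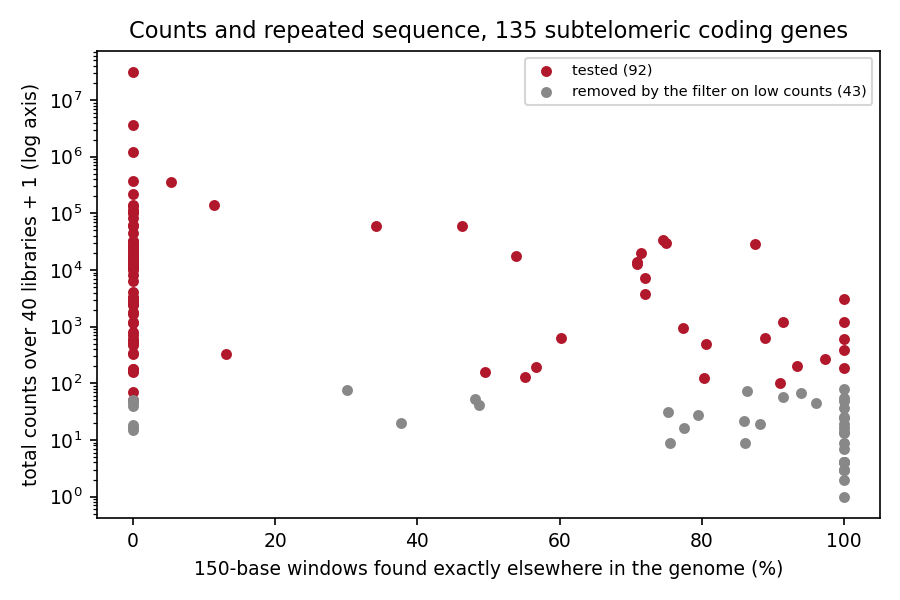
Total counts over the 40 libraries (plus 1, log axis) of each of the 135 subtelomeric coding genes against the percent of its 150-base windows found exactly elsewhere in the genome. The 43 genes removed by the filter on low counts (grey) have at most 79 counts, and most of them lie at 50% or more, whereas the 92 tested genes (red) reach the highest counts at 0%.

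The filter on low counts left 92 members for testing and removed 43, of which 32 are repeated over 50% or more of their windows and 38 lie within 50 kb of the chromosome end. Of the 71 members within 50 kb, 33 were tested. Among the tested members, 32 passed the filter in all 20 groups, 19 in only 1 to 4 groups and 4 in no whole group, so for these last 23 a high stage is what let them be tested. The counts of calls below describe the 92 tested genes only.

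The innermost gene inside the limit and the first coding gene outside it show what the limit separates. At the right end of chromosome I, SPAC922.04 inside had a mean of 747 RPKM in wt V, 1363 in -N and 774 at 8 h, and SPAC922.03 outside had 20.3, 84.2 and 14.5. At the right end of chromosome II, ecl3 inside had 35.6, 21.6 and 25.5 RPKM, and SPBC8E4.03 outside had 70.3, 156 and 34.9. At the left end of chromosome I the pair was isp3 inside, described below, and pfl8 outside, at 20.5, 13.0 and 8.30 RPKM. On the left of chromosome II, SPBPB10D8.06c inside and SPBPB10D8.07c outside had no reads in these groups.

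The median of the 92 tested members took a course that the median of the other coding genes did not. Relative to the wt -N mean, on the log2(RPKM + 0.1) scale, the median member stood at -1.19 and -1.02 in the 2 wt V libraries, at -2.04 and -1.79 at 1 h, and at -1.85 and -1.82 at 2 h. It stood at -1.37 and -1.29 at 4 h and at -1.92 and -1.66 at 6 h, then at -0.55 and -1.0006 at 7 h and at 0.28 and 0.22 at 8 h. Over all 135 members, where many values of 0 hold the median close to its start, it was at -0.63 and -0.62 in wt V, -0.88 in each library at 1 h and 0.0 and 0.14 at 8 h. The median of the other coding genes stayed between -0.36 and 0.07 in all 40 libraries. Most of those genes stand far higher, and 39 of them had a mean under 1 RPKM. In wt the median of these 39 was 0.228 and 0.276 RPKM in V, 0.415 and 0.444 in -N and 0.605 and 0.310 at 1 h. It was 0.0535 and 0.0528 RPKM at 6 h and 0.172 and 0.268 at 8 h. A level in -N above V and a return after 6 h were thus not particular to the members. In snR107kloopmut the median member was at -0.97 and -1.26 in V, -0.29 and -0.26 in -N, -2.06 and -2.18 at 1 h, -2.19 and -2.30 at 2 h, and still at -1.49 and -1.60 at 7 h and -0.85 and -0.92 at 8 h. So -N was a high stage in both strains, and with TMM scaling 8 h was a second one in wt. The level at 8 h relative to -N depends on that scaling. The median edgeR log2 change of the tested members from -N to 8 h in wt was 0.44 with TMM. With libraries scaled to total counts it was -0.71, where the median of all features was -1.23. In the mutant the median at 8 h was above that at 7 h but close to V. At 7 and 8 h the libraries of the strains did not overlap, with wt above the mutant.

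**Figure D2:**
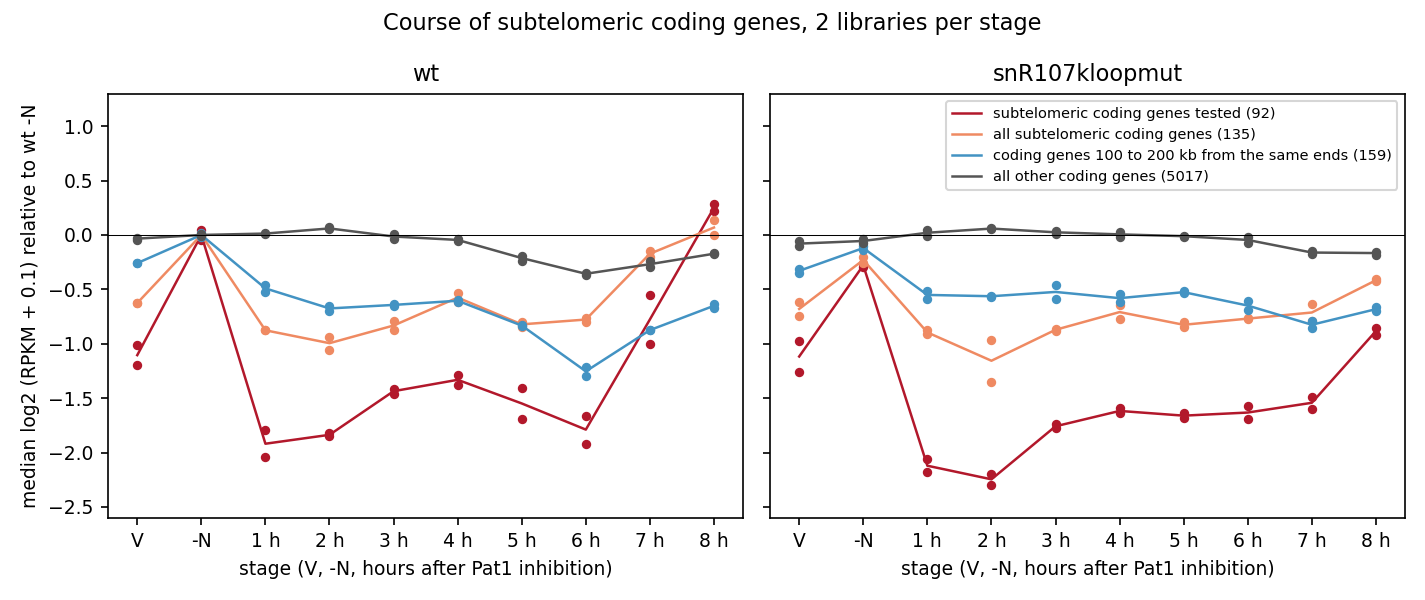
Median log2(RPKM + 0.1) relative to the mean of the wt -N libraries, at V, -N and 1 to 8 h, in wt (left) and snR107kloopmut (right); points are single libraries and lines join the means of the 2 libraries. The tested subtelomeric genes (red) fall from -N to about -1.79 to -2.30 at 1 and 2 h and return in wt to 0.28 and 0.22 at 8 h, while the other coding genes (dark grey) stay between -0.36 and 0.07. All values use TMM-scaled library totals, on which the level at 8 h relative to -N depends.

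Counted over all 135 members, 43 and 45 reached 1 RPKM in wt V, 60 and 63 in wt -N, and 77 and 76 in wt 8 h, against 60 in each snR107kloopmut 8 h library. Among the other coding genes 97.6% to 99.3% did so in every library. The stage with the highest mean was -N for 32 of the 92 tested members in wt (34.8%), 8 h for 23 (25.0%) and 7 h for 13 (14.1%). For the other coding genes -N was the highest stage of 11.9%, 8 h of 6.14% and 7 h of 11.8%. In snR107kloopmut 39 members were highest in -N (42.4%) and 19 at 8 h (20.7%), against 11.3% and 14.1% of the other coding genes. The highest stage was the same in both strains for 42 members. The filter limits these shares, as 19 tested members passed it in only 1 to 4 groups and 4 in no whole group. All of those 4 (pdc102, SPAC186.07c, SPAC750.03c and SPBC1348.05) were highest at 8 h in wt. A highest stage can also rest on few counts, as for tlh1, placed at 7 h in wt on 3 and 9 counts. No filter was applied to the other coding genes here, so the 2 sets are not on equal terms.

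Nitrogen starvation raised subtelomeric genes more often than it lowered them. In wt, 45 of 92 members rose from V to -N and 13 fell (edgeR quasi-likelihood test, Benjamini-Hochberg adjusted p below 0.05 over 12019 features), with a median log2 change of 1.45. Among all features tested 29.1% rose and 26.5% fell, with a median of 0.03. Coding genes 100 to 200 kb from the same ends lay between, with 70 of 157 higher, 38 lower and a median of 0.23. In snR107kloopmut, 42 members rose and 14 fell (background 29.0% and 27.1%), with a median of 1.07. Some tested members passed the filter in few groups and were highest in -N in both strains, so that stage let them be tested. Examples are SPAC186.03 (1 group), SPAC869.01 and SPAC186.04c (2 groups each) and SPAC922.09 (3 groups). Such genes were not set apart in these counts. By role, 18 of 28 tested enzymes other than oxidoreductases rose and 4 fell, 4 of 7 oxidoreductases rose and none fell, and 7 of 17 genes classed as transporters rose and 6 fell. By end, 18 of 27 tested members rose on the right of chromosome I, against 9 of 24 on its left, 9 of 21 on the left of chromosome II and 9 of 20 on its right. Of 13 tested members in the outermost 25 kb 1 rose, and 17 of 27 did between 75 and 100 kb. Among the 26 tested members with under 10% of their length overlapped by another feature, 7 rose in wt and 2 fell (26.9% and 7.69%), a share of rises below the background.

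The largest rise was that of a neighbouring pair on the right end of chromosome I. SPAC869.03c, annotated as a urea transporter (I:5512757-5514865, plus strand), was at 0 and 0.116 RPKM in wt V, 457 and 487 in wt -N, and 1.58 and 0.904 at 1 h. In the mutant it was at 0.0347 and 0.0169 RPKM in V and at 238 and 219 in -N, below both wt -N libraries. The log2 change in wt was 13.23 ± 0.45 (approximate SE, edgeR adjusted p = 2.92e-19), and the strain difference in -N was -1.04 ± 0.23 (adjusted p = 0.0345), a call that no fit kept when 1 replicate of either strain was left out. SPAC869.04, a formamidase-like protein on the minus strand beside it (I:5511137-5512385), was at 0.0438 and 0.0654 RPKM in wt V and at 911 and 942 in wt -N. At 1 h it was at 3.14 and 2.04 RPKM, and in snR107kloopmut -N at 568 and 510. Its V counts in the mutant were 2 in all, against 52488 in -N, a ratio of 18622 with a 95% counting interval of 5155 to 153774. Both genes were thus close to absent in growing cells of either strain and lost almost all of their RNA within the first hour.

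The permease gene nrg1 and the proline transporter gene put4 also rose at starvation, from a higher start, whereas the amino acid transporter gene cat1 fell. SPBPB2B2.01 (nrg1), an amino-acid permease (II:4457695-4459842), was at 41.1 and 34.6 RPKM in wt V, 728 and 677 in -N, 7.27 and 6.87 at 1 h and 2.88 and 2.21 at 8 h. The log2 change was 4.21 ± 0.15 from V to -N (edgeR adjusted p = 1.51e-18) and -8.10 ± 0.19 from -N to 8 h. The proline transporter gene put4 (I:5493164-5495156) was at 73.7 and 116 RPKM in wt V, 260 and 266 in -N and 4.12 and 3.87 at 1 h. It was at 6.23 and 6.03 RPKM in wt 8 h and at 1.65 and 1.28 in the mutant, so the groups did not overlap. SPAC922.06, annotated as a 3-oxoacyl-[acyl-carrier-protein] reductase (I:5485101-5486287), was at 24.8 and 29.4 RPKM in wt V, 452 and 598 in -N and 5.38 in each library at 1 h. It is not among the genes picked by the naming rule, was chosen after its values were seen, and counts as a transporter above only because its product name contains the word carrier. SPBPB2B2.05, a class I glutamine amidotransferase family protein, was at 23.4 and 15.7 RPKM in wt V, 173 and 152 in -N, 24.9 and 27.2 at 1 h and 3.71 and 3.14 at 8 h. The cationic amino acid transporter gene cat1, also chosen after its values were seen, was at 20.1 and 32.4 RPKM in wt V, 8.41 and 9.504 in -N and 31.2 and 34.9 at 8 h, with a log2 change of -1.55 ± 0.23 at starvation (edgeR adjusted p = 1.53e-06).

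Reads of these genes are shared with features on the other strand. In the first wt -N library nrg1 had 59296 counts, and SPNCRNA.6621, which covers 90.9% of it on the opposite strand, had 54899. The pair put4 and SPNCRNA.1091 had 19616 and 17673 counts there, and SPAC869.03c and SPNCRNA.4489 had 36578 and 24568. Whether counting used strand is not given in the sources used here, and such near-equal counts mean that sense and antisense RNA of these genes cannot be told apart. SPAC922.06 is overlapped by no other feature.

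Further rises were of low-level genes. Levels of pcm2, a protein-L-isoaspartate O-methyltransferase gene, were 0.365 and 0.351 RPKM in wt V, 8.46 and 9.19 in -N and 14.1 and 20.8 at 8 h, with a log2 change of 4.60 ± 0.77 at starvation. The uncharacterized gene SPBPB21E7.11 was at 0.248 and 0.0856 RPKM in wt V and 8.68 and 2.89 in -N (log2 5.01 ± 0.72). SPBPB21E7.10, which lies on the other strand of the same bases over 95.2% of its length, was at 0.13 and 0.194 RPKM and then 6.56 and 1.93. For both, the first -N library was the higher one, both lay above every V library, and the rise of SPBPB21E7.10 missed the threshold when wt replicate 1 was left out (3.27, edgeR adjusted p = 0.156).

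The DNA before 3 of these genes is shown because GATAAG, the core motif of GATA factors, which include regulators of nitrogen-source genes in fungi, is more often found before the starvation-induced members. Each run is 250 bases before to 50 bases after the annotated start, read from the RefSeq genome (ASM294v3), 5′ to 3′ on the strand of the gene, and capitals mark GATAAG or its reverse complement CTTATC.
SPAC869.03c, I:5512507-5512806, plus strand: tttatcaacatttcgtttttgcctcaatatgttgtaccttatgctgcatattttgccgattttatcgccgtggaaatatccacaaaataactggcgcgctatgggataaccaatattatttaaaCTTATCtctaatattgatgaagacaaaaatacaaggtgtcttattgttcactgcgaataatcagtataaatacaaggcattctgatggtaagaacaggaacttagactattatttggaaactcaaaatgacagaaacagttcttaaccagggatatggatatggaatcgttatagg
put4, I:5492914-5493213, plus strand: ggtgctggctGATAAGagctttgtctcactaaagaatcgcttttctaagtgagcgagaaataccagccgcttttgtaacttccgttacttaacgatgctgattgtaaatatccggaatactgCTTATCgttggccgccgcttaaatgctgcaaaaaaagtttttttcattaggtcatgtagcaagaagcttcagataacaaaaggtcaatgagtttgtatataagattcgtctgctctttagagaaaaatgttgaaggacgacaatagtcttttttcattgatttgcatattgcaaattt
SPAC922.06, I:5484851-5485150, plus strand: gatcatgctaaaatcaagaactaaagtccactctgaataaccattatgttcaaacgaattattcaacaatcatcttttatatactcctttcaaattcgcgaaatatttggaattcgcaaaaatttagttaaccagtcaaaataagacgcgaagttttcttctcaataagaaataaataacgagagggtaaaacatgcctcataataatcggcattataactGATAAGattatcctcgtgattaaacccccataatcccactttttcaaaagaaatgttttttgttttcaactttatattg
In put4 the motif starts 240 and 128 bases before the annotated start, in SPAC869.03c 126 bases before it and in SPAC922.06 29 bases before it. On either strand of the same window it occurred in 14 of the 45 members that rose in wt (31.1%), in 23 of 134 members with a window (17.2%), in 199 of 1594 other coding genes that rose (12.5%) and in 590 of 5146 coding genes (11.5%). Windows of nrg1, SPAC869.04 and pcm2 held no match. The window of SPAC869.04 is a border case. Its start faces away from that of SPAC869.03c, and the window stops inside the motif shown for SPAC869.03c, which lies between both genes. A match is a description of the letters, not of a bound site.

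The genes that fell at starvation include the secreted acid phosphatase gene pho1 (II:4447506-4449053), the classic reporter of phosphate supply. It was at 1940 and 2156 RPKM in wt V, 24.1 and 19.6 in -N, 3199 and 3311 at 1 h and 184 and 205 at 8 h. In snR107kloopmut it was at 1000 and 917 RPKM in V and 16.9 and 18.9 in -N. The fall was -6.55 ± 0.16 in wt and -5.74 ± 0.15 in the mutant, and pho1 was the 1 member of 92 whose starvation change differed between the strains (0.81 ± 0.18, edgeR adjusted p = 0.0318), with a background of 0.674% of all features and 0.0% to 6.19% of members when 1 replicate of a strain was left out. Its reads are shared with SPNCRNA.1712, which covers 91.3% of it on the same strand. In the first wt libraries pho1 and SPNCRNA.1712 had 109841 and 109302 counts in V, 1417 and 1582 in -N and 4987 and 5755 at 8 h.

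A neighbouring pair at the left end of chromosome II also fell. SPBPB10D8.01, annotated as a cysteine transporter, was at 84.3 and 25.3 RPKM in wt V and 2.074 and 0.915 in -N, and at 4.68 and 5.54 in snR107kloopmut V. The first wt V library was well above the second and both lay above the mutant, with a strain difference of -3.42 ± 0.51 in V (edgeR adjusted p = 0.000182). SPBPB10D8.02c, an arylsulfatase, was at 8.63 and 2.91 RPKM in wt V, 0.115 and 0.156 in -N and 0.512 and 0.28 in mutant V. The pair was again high in the first wt V library and lower in the second. SPAC977.12, an L-asparaginase with a copy at the left end of chromosome II of 95.3% identity, fell from 32.5 and 31.0 RPKM to 5.78 in each -N library. SPBPB2B2.08, of unknown function and fully overlapped by SPNCRNA.6629, was at 8.93 and 17.1 RPKM in wt V and 1.10 and 2.04 in -N.

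**Figure D3:**
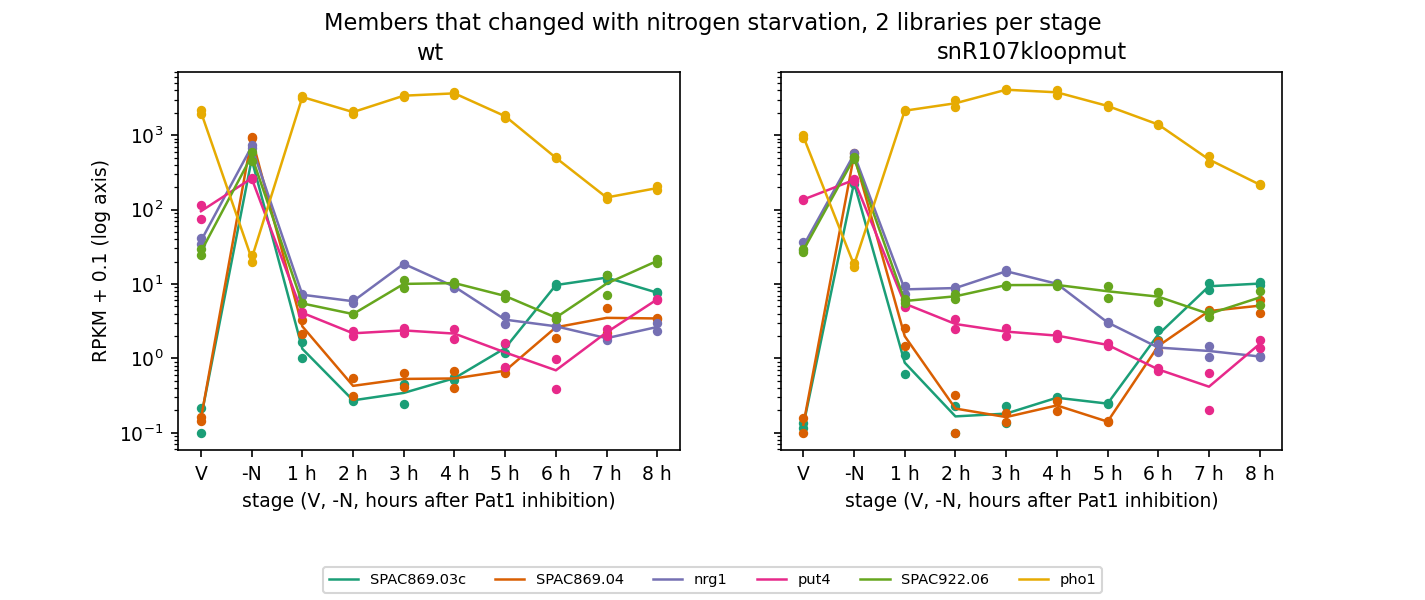
RPKM + 0.1 (log axis) of 6 subtelomeric genes at V, -N and 1 to 8 h in wt (left) and snR107kloopmut (right); points are single libraries and lines join the means of the 2. SPAC869.03c and SPAC869.04 stand at the bottom of the axis in V and above 200 RPKM in -N in both strains, nrg1, put4 and SPAC922.06 peak in -N, and pho1 has its lowest points there, at 16.9 to 24.1 RPKM.

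More members fell than rose in the first hour. From -N to 1 h, 51 of 92 members fell and 10 rose in wt (background 26.7% lower and 25.7% higher), with a median of -2.42, and in snR107kloopmut 46 fell and 12 rose (background 24.1% and 25.2%), with a median of -2.13. Among the members with under 10% of their length overlapped by another feature the share that fell was 34.6% in wt and 26.9% in the mutant, the latter near its background. For no member did the 1 h change differ between the strains by edgeR (background 0.0%), with 5 members at an unadjusted p below 0.05 and none called by DESeq2 or limma-voom. This comparison and the previous one share the -N libraries, so their values are given side by side only. Coding genes 100 to 200 kb from the ends had 81 of 157 lower and 31 higher at 1 h in wt, with a median of -0.46. The 1 h rises include pho1 (7.22 ± 0.16 in wt) and SPBPB2B2.08 (3.34 ± 0.41), and the falls include SPAC869.03c (-8.58 ± 0.33) and SPAC922.06 (-6.61 ± 0.23).

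From -N to 8 h the share of members that were higher was near the background in wt. There 34 members were higher (37.0%) and 26 lower (28.3%), against a background of 32.6% and 37.5%, with a median of 0.44. With libraries scaled to their total counts the split was 20 higher and 41 lower (21.7% and 44.6%), where the median of all features is -1.23 in place of -0.08, and SPAC977.12 and fex1, called higher under the main scaling, then had changes of -0.33 and -0.53. The SPAC977.12 call was also lost without wt replicate 2 (0.66, edgeR adjusted p = 0.134), and that of fex1 when either wt replicate was left out (adjusted p = 0.12 and 0.0843). In snR107kloopmut 24 members were higher and 38 lower (background 34.4% and 37.7%), with a median of -0.97. The wt members higher at 8 h were spread unevenly along the arms: 6 of 13 tested in the outermost 25 kb with none lower, and 10 of 20 between 25 and 50 kb with 1 lower, against 8 higher and 14 lower of 32 between 50 and 75 kb and 10 higher and 11 lower of 27 between 75 and 100 kb. Of the 43 untested members, 38 lie in the outer 50 kb, so these shares describe the genes with enough reads. Of the 16 higher members within 50 kb, 9 are copies from the repeated set described next, which share reads, and 6 passed the filter in at most 4 groups.

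**Figure D4:**
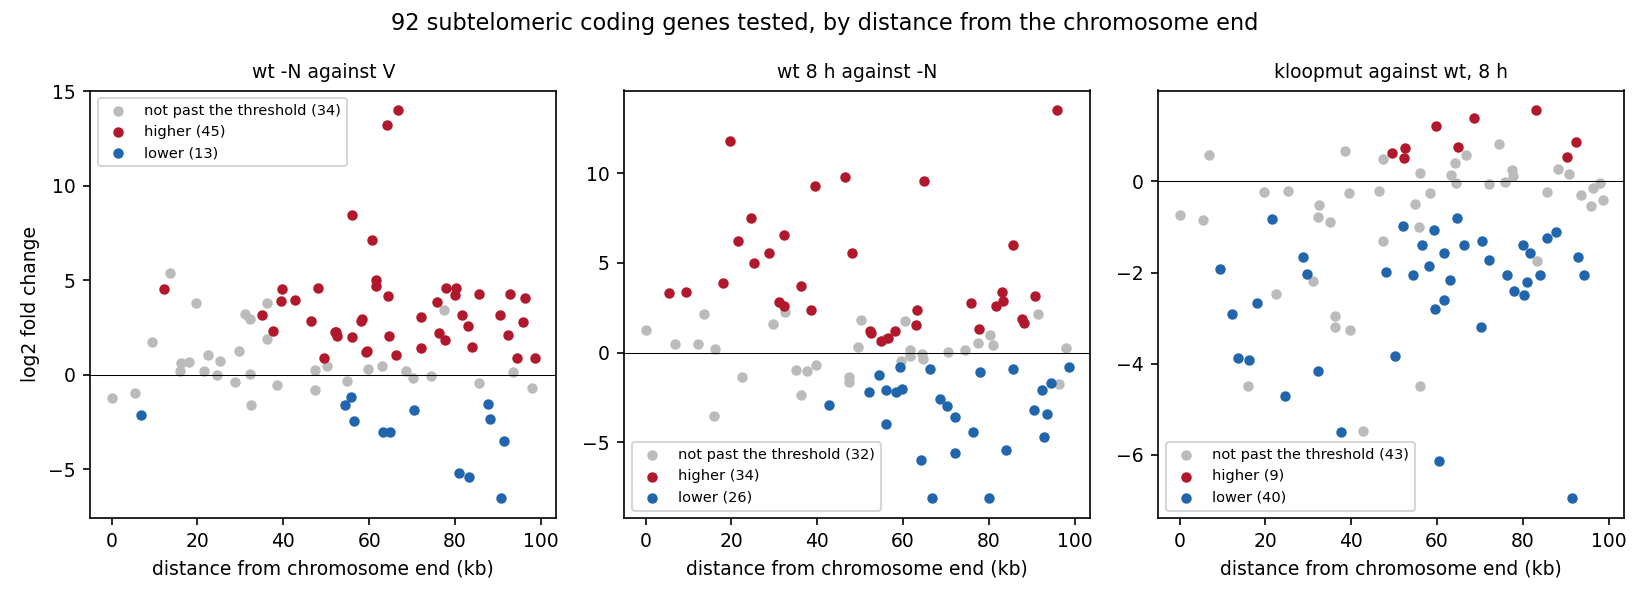
Log2 fold change of each of the 92 tested subtelomeric genes against its distance from the chromosome end in kb, for wt -N against V, wt 8 h against -N and snR107kloopmut against wt at 8 h (titled kloopmut). Within 50 kb of the ends 16 genes were higher (red) and 1 lower (blue) in wt at 8 h, and in the third panel 12 were lower and 1 higher.

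The clearest late genes are copies of each other. A set of 10 uncharacterized members shares sequence and rose at the end of the wt series. The first 4 are SPAC977.06, SPBC1348.07, SPBPB2B2.14c and SPBPB2B2.07c. Identity to SPAC977.06 was 99.4% to 99.6% over the best aligned stretch, which is 644 bases long, or 471 for SPBPB2B2.07c. In a window of 120 bases SPBPB2B2.07c differed from SPAC977.06 at 11. The other 6 (SPAC212.04c, SPAC212.01c, SPAC750.06c, SPBC1348.01, SPBCPT2R1.01c and SPBCPT2R1.04c) are closer to each other, with SPAC977.06 at 73.6% to 78.1% identity to them. The set was assembled after its values were seen. It lies at all 4 ends and is overlapped by no other feature. The sequence around GGTTACA, the unit of the fission yeast telomere repeat, is shown because this motif stands directly before an ATG in all 10. That ATG lies before the annotated start of the gene in SPAC977.06, SPBC1348.07 and SPBPB2B2.14c, and inside the annotated gene in the others. Capitals mark GGTTACA in 60 bases read 5′ to 3′ on the strand of each gene from the RefSeq genome (ASM294v3).
SPAC977.06, I:39386-39445, plus strand: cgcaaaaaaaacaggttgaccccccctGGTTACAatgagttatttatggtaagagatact
SPBC1348.07, II:19596-19655, plus strand, identical in SPBPB2B2.14c: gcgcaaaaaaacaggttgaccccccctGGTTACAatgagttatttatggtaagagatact
SPBPB2B2.07c, II:4474857-4474916, minus strand: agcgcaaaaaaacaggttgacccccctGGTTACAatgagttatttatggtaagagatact
SPAC212.04c, I:21602-21661, plus strand, identical in the other 5: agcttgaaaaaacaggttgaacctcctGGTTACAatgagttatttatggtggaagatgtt
Within 250 bases before to 50 after the annotated start, GGTTACA or its reverse complement occurred in 11 of the 34 members higher at 8 h in wt (32.4%), the 10 copies and pho1, in 14 of 134 members (10.4%), in 39 of 1743 other coding genes higher at 8 h (2.24%) and in 124 of 5146 coding genes (2.41%). GTAAACA, the motif bound by Mei4, occurred in 2 of these 34 members (5.88%), in 4 of 134 members (2.99%), in 373 of the 1743 other coding genes (21.4%) and in 16.4% of all coding genes. Its low share is thus found among the members in general. TGACGT, the core of the Atf1 site, occurred in 4 of the 34 members higher at 8 h (11.8%), in 8.21% of members, in 7.75% of the 1743 other coding genes and in 5.95% of all coding genes. The 10 are copies of each other and are not separate instances of the motif.

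SPAC977.06 (I:39431-40072) shows the course of the first 4 copies. It was at 0.616 and 0.324 RPKM in wt -N, 0.814 and 0.371 at 4 h, 6.42 and 7.65 at 5 h, 219 and 255 at 6 h, 379 and 346 at 7 h and 331 and 280 at 8 h. In snR107kloopmut it was at 1.21 and 0.231 RPKM at 5 h, 18.6 and 21.8 at 6 h, 191 and 197 at 7 h and 245 and 264 at 8 h. The rise from -N to 8 h was 9.30 ± 0.37 in wt (log2, edgeR adjusted p = 7.61e-19), and the strain difference was -3.31 ± 0.38 at 5 h (adjusted p = 1.08e-08). At 8 h the strains did not pass the threshold for SPAC977.06, SPBC1348.07 and SPBPB2B2.14c. The mutant libraries lay below the wt 6 h level at 6 and 7 h and around it at 8 h.

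The other copies of this kind were likewise higher at 6 h than at 5 h in both wt libraries. SPBC1348.07 was at 2.47 and 2.78 RPKM in wt 5 h, 134 and 138 at 6 h and 238 and 203 at 8 h, with 0.306 and 0.256 in the mutant at 5 h and 11.6 and 10.1 at 6 h. SPBPB2B2.14c was at 6.28 and 6.66 RPKM in wt 5 h, 200 and 205 at 6 h and 359 and 280 at 8 h, with 16.1 and 19.6 in the mutant at 6 h. SPBPB2B2.07c was at 4.48 and 5.61 RPKM in wt 5 h, 137 and 146 at 6 h, 164 and 179 at 7 h and 94.0 and 72.1 at 8 h, against 137 and 142 in the mutant at 8 h. This copy alone of the 4 was higher in the mutant at 8 h (0.75 ± 0.25, edgeR adjusted p = 0.0144), where wt had fallen from its 7 h level. It was also the only one of the 4 that fell at starvation in wt, from 0.903 and 0.934 RPKM to 0.134 and 0.0755.

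The second kind of copy reached levels from 1.41 to 278 RPKM in wt 8 h. SPAC212.04c, with 34.1% of its windows repeated, was at 3.73 and 3.66 RPKM in wt -N, 11.4 and 11.8 at 4 h, 37.7 and 41.1 at 5 h, 157 and 156 at 6 h, 348 and 320 at 7 h and 278 and 267 at 8 h. In the mutant it was at 8.11 and 8.48 RPKM at 5 h and 146 and 159 at 8 h, below wt at both times (-2.25 ± 0.15 and -0.84 ± 0.14 on the log2 scale, edgeR adjusted p = 8.15e-13 and 1.68e-05). SPBCPT2R1.04c was at 2.57 and 2.95 RPKM in wt -N and 72.1 and 103 at 8 h. SPAC212.01c, which is 99.9% identical to it and repeated over all of its windows, was at 0.401 and 0.42 RPKM in wt -N and 22.1 and 17.0 at 8 h. SPBCPT2R1.01c reached 8.01 and 6.58 RPKM in wt 8 h, SPAC750.06c 6.48 and 7.70 and SPBC1348.01 1.41 and 1.72. Without wt replicate 1 the rises of SPAC750.06c (3.27) and SPBC1348.01 (3.13) missed the threshold (edgeR adjusted p = 0.0516 and 0.141). The part of shared reads in the levels of these repeated copies was not tested, nor were the differences among copies.

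**Figure D5:**
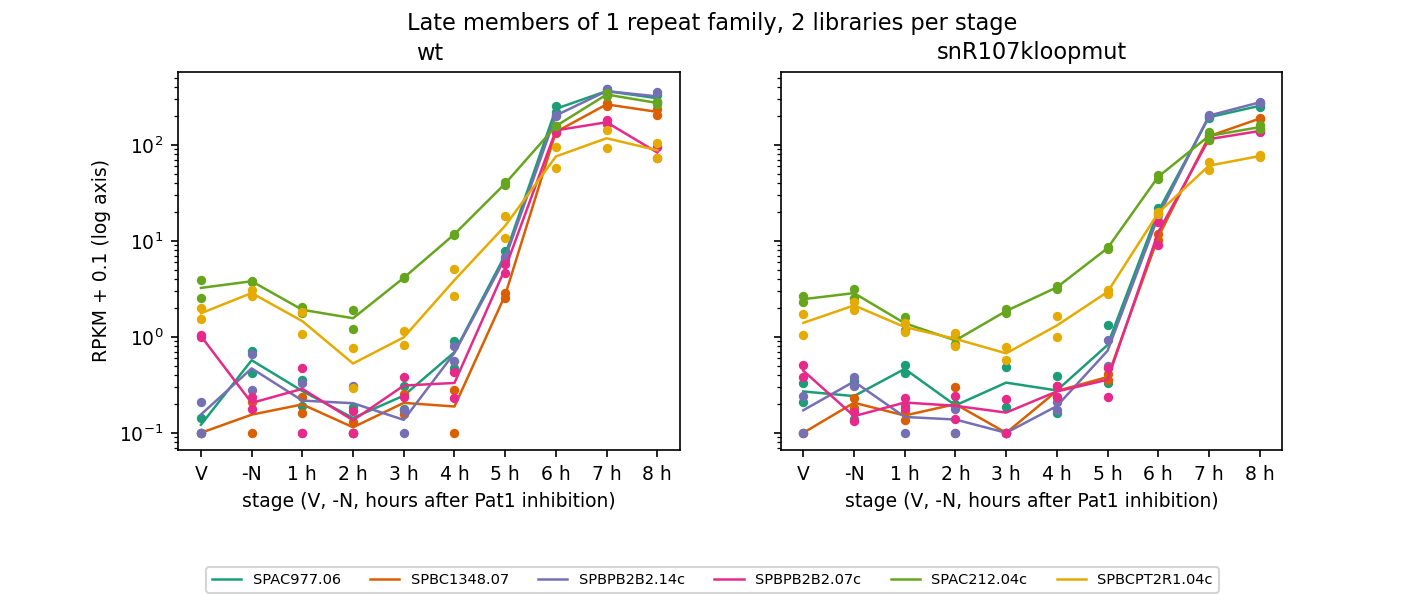
RPKM + 0.1 (log axis) of 6 members of the repeated set at V, -N and 1 to 8 h in wt (left) and snR107kloopmut (right); points are single libraries and lines join the means of the 2. SPAC977.06 passes from 6.42 and 7.65 RPKM at 5 h to 219 and 255 at 6 h in wt, and stands at 18.6 and 21.8 at 6 h in the mutant, with SPBC1348.07, SPBPB2B2.14c and SPBPB2B2.07c alongside.

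The largest late rise of any member was that of isp3, a spore coat gene, from 18.1 and 8.71 RPKM in wt -N to 164345 and 150027 at 8 h, where it held 11.1% and 10.8% of all counts of the library, and 7.42% and 8.34% in snR107kloopmut. SPNCRNA.606 covers 62.5% of isp3 on the opposite strand and had 2399799 counts beside 3380898 for isp3 in the first wt 8 h library. Sense and antisense RNA of isp3 thus cannot be told apart, and the library total holds the counts of both features. Without isp3, the members held 1.28% and 1.25% of counts in wt -N and 0.234% and 0.239% in wt 8 h. The fluoride channel gene fex1, with 72.0% of its windows repeated, moved little, at 6.00 and 4.33 RPKM in wt -N and 9.22 and 6.79 at 8 h. The members that fell most from -N to 8 h were SPAC869.04 (-8.11 ± 0.33), nrg1, SPAC869.03c (-5.97 ± 0.29), SPBPB2B2.05 (-5.56 ± 0.22) and put4 (-5.42 ± 0.27), all genes that starvation had raised.

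Before induction the edgeR calls between the strains were few, and all were lower in the mutant. In V, 7 of 92 members were lower in snR107kloopmut and none higher by edgeR (background 3.47% and 2.47%), with a median of -0.10 and with 10 members higher at an unadjusted p below 0.05, 1 by DESeq2 and 4 by limma-voom. In -N, 2 members were lower, SPAC869.03c and SPBPB10D8.01, and none higher (background 0.383% and 0.15%), with a median of -0.35, and neither was called when 1 replicate of a strain was left out, with 4 higher at an unadjusted p below 0.05, 0 by DESeq2 and 1 by limma-voom.

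After induction the balance of calls between the strains varied with the hour, and it leaned to lower levels in the mutant at 3 and 8 h. At 3 h 20 members were lower and 4 higher (background 12.8% and 14.0%). At 5 h 22 were lower and 17 higher, both shares below the background (35.4% and 34.0%), with a median of 0.08, or 0.62 under total-count scaling, where the median of all features is 0.61. At 8 h 40 were lower and 9 higher (background 27.2% and 26.1%), with a median of -1.09, while the coding genes 100 to 200 kb from the ends had 65 of 157 lower and 38 higher with a median of -0.32. The change from -N to 8 h itself differed between the strains for 29 members, 23 of them with the lower change in the mutant and 6 with the higher (background 36.9% in either direction). Over the mean of 1 to 8 h 38 members were lower (41.3%) and 14 higher (15.2%), against a background of 38.5% and 39.3%, with a median of -0.52. By end, the members lower in the mutant at 8 h were 11 of 24 tested on the left of chromosome I, 15 of 27 on its right, 12 of 21 on the left of chromosome II and 2 of 20 on its right, where 6 were higher. A group was at 0 in both libraries for 18 members in the mean of 1 to 8 h, which leaves their fitted change without a finite error.

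The members lower in the mutant over 1 to 8 h were led by gdt1 and by the second kind of repeated copy. The transcript of gdt1, which encodes a GDT1-like protein, had 79 counts over the 2 wt 8 h libraries and 2 over those of the mutant, a ratio of 48.5 with a 95% counting interval of 13.0 to 407. Its levels were 3.91 and 2.79 RPKM in wt -N, 1.62 and 1.68 at 8 h, and in the mutant 1.33 and 0.871 in -N and 0.0612 and 0 at 8 h. Over the mean of 1 to 8 h SPBCPT2R1.01c was at -2.79, SPAC212.01c at -2.41 ± 0.30, SPAC750.06c at -2.28 ± 0.41 and SPBC1348.01 at -2.19 ± 0.46 (edgeR adjusted p between 2.88e-08 and 0.000106). These 4 are copies with shared reads and do not count as 4 separate observations. Both mutant libraries held 0 counts of SPBCPT2R1.01c at 1 and 2 h, and of gdt1 at 2, 4 and 7 h. The size of the mean change of these genes thus has no finite error. Without wt replicate 1 gdt1 (-2.95) and SPBC1348.01 (-1.56) were no longer past the threshold, nor was SPBCPT2R1.01c (-2.29) without wt replicate 2.

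Members higher in the mutant over 1 to 8 h included metabolic genes. The hydrolase gene hhy1 was at 32.2 and 26.97 RPKM in wt 5 h and at 95.5 and 110 in the mutant, and at 12.6 and 14.9 against 24.0 and 26.3 at 8 h, with a mean difference of 1.12 ± 0.05 (edgeR adjusted p = 1.84e-17). It is overlapped along its whole length. The 2-dehydropantoate 2-reductase gene pan5, of pantothenate synthesis, was at 3.29 and 4.09 RPKM in wt 8 h and 8.38 and 8.71 in the mutant, also 1.12 ± 0.08 over the mean of 1 to 8 h. SPAPJ695.02, of unknown function, was at 15.5 and 9.65 RPKM in wt 4 h and 4.90 and 1.92 at 5 h, and at 23.2 and 23.0 and then 16.2 and 16.9 in the mutant. The hexose transporter gene ght7 stayed low in every library, with a highest value of 1.34 RPKM, and its mean difference of 0.66 ± 0.26 missed the threshold when wt replicate 1 (0.53) or either mutant replicate (0.62 and 0.52) was left out.

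The galactose genes, a cluster at the right end of chromosome II for use of galactose, split between the strains by time. The galactose-1-phosphate uridylyltransferase gene gal7 was at 3.30 and 3.80 RPKM in wt V, 15.1 and 13.4 in -N, 13.6 and 12.8 at 3 h, 3.88 and 3.16 at 5 h and 4.35 and 2.46 at 8 h. In the mutant it was at 7.81 and 9.21 RPKM at 3 h and 17.9 and 19.0 at 5 h, and its mean difference over 1 to 8 h was 0.95 ± 0.10 (edgeR adjusted p = 2.06e-09). Levels of gal1, the galactokinase gene, were 11.3 and 9.14 RPKM in wt 8 h and 13.6 and 18.2 in the mutant, with a mean difference of 0.22 ± 0.09 that was 0.02 without wt replicate 2. The epimerase gene gal10 was at 7.10 and 7.83 RPKM in wt 8 h and 9.88 and 11.3 in the mutant, with a mean difference of -0.26 ± 0.08 that became 0.0275 under total-count scaling. It shares 93.7% of its bases with SPBPB2B2.11 on the other strand, whose counts ran close to its own in some libraries (441 against 440 for SPBPB2B2.11 in the first wt -N library) and less so in others (428 against 316 in the second wt 8 h library).

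The telomere-proximal helicase genes were below 1 RPKM in every library. At the very left end of chromosome I, tlh1 lay between 0.0140 and 0.127 RPKM in the 20 wt libraries, and tlh2, at the right end of chromosome II and 99.98% identical to it, between 0 and 0.205. In the mutant tlh2 was at 0.774 and 0.521 RPKM in V, 0.286 and 0.201 in -N and 0.564 and 0.42 at 3 h, above both wt libraries at these stages. The mean difference over 1 to 8 h was 1.84 ± 0.30 for tlh2 and -1.47 ± 0.39 for tlh1 (edgeR adjusted p = 2.78e-06 and 0.00127). Nearly all of their sequence is shared, so the opposite signs rest on the few reads placed in each copy.

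Of 26 genes for telomere proteins, heterochromatin and knobs, all were tested and the list was taken from general knowledge with earlier results of these data known. From V to -N in wt 8 rose and 6 fell, near the background of 29.1% and 26.5%. At 1 h 12 rose and 1 fell (background 25.7% and 26.7%), and at 8 h 8 were higher and 15 lower than in -N (background 32.6% and 37.5%), with a median of -0.50. Transcripts of swi6 were at 29.9 and 25.7 RPKM in wt -N and 9.90 and 8.92 at 8 h (-1.56 ± 0.14), those of taz1 at 25.4 and 24.4 and then 5.03 and 4.44 (-2.39 ± 0.14), and those of sgo2 at 22.7 and 19.5 and then 5.57 and 3.18 (-2.26 ± 0.25). Other genes of the list went the other way. Levels of tpz1 were 72.3 and 75.9 RPKM in wt -N and 141.6 and 141.0 at 8 h. Levels of pot1 were 56.1 and 59.3 RPKM and then 108.9 and 109.1, against 65.0 and 67.6 in the mutant at 8 h. In the mutant swi6 was at 42.0 and 43.1 RPKM at 5 h against 10.1 and 10.6 in wt. Over the mean of 1 to 8 h, 17 of the 26 were higher in the mutant and 6 lower (background 39.3% and 38.5%), with swi6 at 1.11, sgo2 at 1.12 and taz1 at 0.92 (edgeR). The apparent rise of clr4, the histone methyltransferase gene, by 8.44 at 8 h runs with reads of the feature on its other strand, SPBC428.07, at 105987 and 122643 counts in the first wt 8 h library, and cannot be told apart from it. The same holds for rik1, at 7.37 and 7.70 RPKM in wt -N and 103 and 74.8 at 8 h. SPCC11E10.09c covers 91.9% of rik1 on the other strand. In the first wt 8 h library rik1 had 7266 counts and SPCC11E10.09c had 33486. The part of the listed genes in the levels of the subtelomeric members was not tested.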

How the data were processed

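Poly(A)+ RNA libraries of 40 samples (2 strains, 10 stages, 2 biological replicates from independent cultures) were sequenced as paired reads by the authors. The deposited values are raw counts per feature, which the authors made with bcl2fastq 2.20, fastp 0.23.1, STAR 2.6.1d and featureCounts of Subread 2.0.6, per the labels. Which annotation release was used, whether counting was stranded and how multiply matching reads were counted are not given in the sources used here. Library totals were 22889781 to 35440184 counts, and counting intervals and the floor of 3 counts cover counting error only.

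Counts were fitted in edgeR 4.0.16 (limma 3.58.1, R 4.3.3) with TMM scaling, filterByExpr on the 20 groups and 1 mean per group over all 40 libraries. Quasi-likelihood tests were adjusted by Benjamini-Hochberg over 12019 features with a threshold of 0.05. Errors are approximate standard errors, taken as the absolute log2 change divided by the square root of the F statistic of the test. RPKM used TMM-scaled totals and feature length, and courses used log2(RPKM + 0.1). The fitting code was tested on simulated data. Repeats were found as exact 150-base windows and copies with blastn 2.17.0, in the RefSeq genome ASM294v3 (134 of 135 members with the same coordinates). Roles came from keywords in the product names.

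Named were tlh1, tlh2, gal1, gal7, gal10, isp3 and fex1, and the 5 largest rises and falls past the threshold with at least 1 RPKM in a compared group, for wt -N against V, wt 8 h against -N and the strains over the mean of 1 to 8 h. The members and lists were chosen with earlier results of these data known. Alternatives were other scalings, no filter, DESeq2 1.42.0, limma-voom, a replicate block, single replicates left out, other sets of libraries or features and subsets of members. Stages are aliquots of a culture, but the labels do not state that a number marks the same culture across stages, and the tests treat libraries as independent. Correlations of same-numbered deviations ran from 0.02 to 0.42 within a strain and from -0.08 to 0.20 between strains.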

Additional observations from a re-analysis of the deposited data

Results flagged for a closer look

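For 9 of the results on named genes the change itself differed between the strains (edgeR interaction contrast, adjusted over all features). Among all features the starvation change differed for 0.674% and the change from -N to 8 h for 36.9%. A differing 8 h change is thus not particular to the genes below. The starvation change of pho1 was higher in snR107kloopmut by 0.81 on the log2 scale (adjusted p = 0.0318), the fall in the mutant starting from a lower level in V.

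The change from -N to 8 h was higher in the mutant by 1.46 for SPAC869.03c (adjusted p = 0.00132), 1.35 for SPAC869.04 (adjusted p = 0.0087), 1.27 for pan5 (adjusted p = 0.00154) and 0.64 for hhy1 (adjusted p = 0.00911). SPAC869.03c was at 7.70 and 7.37 RPKM in wt 8 h and at 10.6 and 9.44 in the mutant, from a -N level about 2-fold higher in wt.

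The same change was lower in the mutant, with a value of -1.98 for put4 (adjusted p = 0.000131), -1.46 for SPAC977.12 (adjusted p = 0.0134), -1.06 for nrg1 (adjusted p = 0.0014) and -3.89 for gdt1 (adjusted p = 0.00975), the last resting on 2 mutant counts at 8 h. SPAC977.12 was at 8.64 and 11.8 RPKM in wt 8 h and at 4.06 and 3.70 in the mutant. Genes that mark the stages also differed between the strains at equal hours, and the part of timing in these differences was not tested.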

How the results depend on the processing

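Shares are percent of members tested. Of the 27 shares of members called, all stayed within 1.5 times their main value without isp3. Among members under 10% overlapped by another feature the shares were 26.9% higher and 7.69% lower for wt -N against V, 34.6% and 26.9% lower at 1 h in wt and the mutant, 15.4% and 26.9% lower at 8 h, 3.85% lower in the mutant in V and in -N, 42.3% lower at 5 h, 0.0% for the starvation change and 15.4% for the 8 h change. Within 50 kb of the ends they were 27.3% higher and 3.03% lower for wt -N against V, 24.2% and 0.0% in the mutant, 6.06% higher at 1 h in each strain, 30.3% and 18.2% lower at 1 h, 3.03% and 18.2% lower at 8 h, and for the mutant against wt 0.0% lower in V and -N, 9.09% lower at 3 h, 9.09% higher at 5 h and over the mean of 1 to 8 h, 3.03% higher at 8 h, 0.0% for the starvation change and 12.1% for the 8 h change.

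Scaling to total counts gave 21.7% higher and 44.6% lower at 8 h in wt, and for the mutant against wt 0.0% lower in -N, 28.3% higher at 5 h and 23.9% higher over the mean. It turned the sign of fex1 (-0.53) and SPAC977.12 (-0.33) at 8 h in wt and of gal10 over the mean (0.0275). No filter gave 18.7% lower at 8 h in wt and 20.9% for the 8 h change, with more genes tested. Fitting only the groups compared gave 16.9% higher at 1 h in wt, and for the strains 0.0% lower in V and -N, 34.4% lower at 3 h and 30.2% higher at 5 h. An absolute log2 change of at least 1 left 14.1% lower at 3 h, 3.26% higher at 8 h, 4.35% higher and 22.8% lower over the mean, and 0.0% for the starvation change. Unrepeated members, a subset added after seeing the data, had 1.61% higher at 3 h.

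Before induction the strain calls are few and move with the tool. Higher in the mutant in V were 1.09% by DESeq2, 4.35% by limma-voom and 2.17% with coding features only, and in -N 1.09% by limma-voom and with coding features only. Lower in -N were 1.09% with DESeq2 size factors, 6.52% by DESeq2, 11.96% by limma-voom, 4.35% with coding features only and 5.43% with the replicate block, which moved no other share by over 1.5 times. The starvation change was 7.61% by limma-voom. Where no construction is named, the cause was not tested.

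Leaving out 1 replicate of a strain gave, in percent, for wt 40.4 to 45.5 higher and 10.6 to 14.9 lower at starvation, 7.45 to 9.90 and 43.6 to 49.5 at 1 h, and 29.9 to 36.6 and 23.4 to 25.8 at 8 h. For the mutant it gave 30.7 to 45.7 and 6.93 to 16.0 at starvation, 6.93 to 12.8 and 35.6 to 52.1 at 1 h, and 19.8 to 26.6 and 28.7 to 40.4 at 8 h. Between strains, higher and lower, it gave 0.0 to 6.19 and 2.97 to 11.3 in V, 0.0 and 0.0 in -N, 1.98 to 5.15 and 9.90 to 18.6 at 3 h, 12.9 to 16.5 and 16.8 to 23.7 at 5 h, 3.96 to 8.51 and 28.7 to 33.0 at 8 h, and 10.9 to 14.9 and 30.9 to 38.6 over the mean. The starvation, 1 h and 8 h changes differed for 0.0 to 6.19, 0.0, and 17.8 to 26.6. Fits by the groups compared alone were not run for these changes, and protein identity was not run.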

Other observations

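The table holds 5 coding features on a separate contig for a gap near a telomere of chromosome II, which the positional rule does not cover. SPBC460.05 was at 54.7 and 36.7 RPKM in wt V and at 0.298 and 0.411 in wt -N, with 2.46 RPKM in the first snR107kloopmut V library. SPBC460.02c was at 170 and 205 RPKM in wt V, 95.7 and 81.2 in wt -N and 127 and 137 in wt 8 h. SPBC460.01c was at 18.9 and 26.6 RPKM in wt V, 15.9 and 15.7 in wt -N and 0.171 and 0.202 at 1 h. SPBC460.03 was at 24.2 and 22.1 RPKM in wt V, 2.10 and 2.58 in wt -N and 15.1 and 13.6 at 1 h, and SPBC460.04c had 830 counts over all libraries.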
